A study of Mus musculus with 2 samples.

Results

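The SoxB and SoxC genes encode transcription factors that share a DNA-binding HMG box. Their messenger RNA was measured in mouse E14 embryonic stem (ES) cells before and after differentiation with retinoic acid. The group has 8 genes: Sox1, Sox2 and Sox3 (SoxB1), Sox14 and Sox21 (SoxB2), and Sox4, Sox11 and Sox12 (SoxC). They were taken by symbol from the authors' gene table of 34376 rows, in which each has 1 row under its symbol in capitals (SOX1, SOX2, SOX3, SOX14, SOX21, SOX4, SOX11, SOX12), and from the promoter and transcript tables, in which they have 9 and 17 rows.

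The study has 2 samples with 1 library each. The differentiated cells had been plated without feeder cells in 10% serum with 0.1 µM all-trans retinoic acid and were collected after 4.5 days as a mixed population. The undifferentiated cells grew in 15% serum with 1000 u/ml leukaemia inhibitory factor on mitomycin-treated embryonic fibroblasts. Both came from the E14 line (strain 129P2/OlaHsd) at passage 29, and each library was read on 2 lanes. Per the labels, fibroblasts that remained were estimated at under 0.25% of cells, and dead cells at about 8% of the differentiated and 2% of the undifferentiated harvest. The lanes held about 33000000 and 32000000 reads for the differentiated library and 37800000 and 36100000 for the undifferentiated library. These depths are implied by the values if their unit is RPKM. Levels are taken as RPKM, that is reads per kilobase scaled to the depth of the lane. A gene's value sums its transcript forms, each divided by its own length. Beside a level, ± gives the SD between the lanes of its library, which is a technical spread and holds no difference between cultures. No culture was replicated and no test between the conditions is possible, so every difference below compares 2 libraries.

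Sox proteins bind short AT-rich sites through the HMG box and act with partner factors. The SoxB1 proteins are activators. Sox2 works with the POU factor Oct4 to hold ES cells in self-renewal, and Sox1, Sox2 and Sox3 together keep neural progenitors from differentiating. The SoxB2 proteins carry a close relative of the same box but act mainly as repressors, and in the chick spinal cord Sox21 opposes SoxB1 and promotes neuron formation. The SoxC proteins are activators of a later step: Sox4 and Sox11 turn on neuronal genes in cells that leave the progenitor state, and they also act in mesenchyme, heart and other tissues.

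The kinship of the 8 genes can be read from the coding sequence at the start of the HMG box, which is shown because it decides how far 36 bp reads can be told apart between them. The lines give 60 coding bases of each gene, 5′ to 3′, from the GENCODE M21 transcripts (build GRCm38). They begin at the codons for arginine, proline and methionine that open the conserved motif. Capitals mark the bases that differ from Sox2.
Sox1: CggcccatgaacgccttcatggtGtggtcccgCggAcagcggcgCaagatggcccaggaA
Sox2: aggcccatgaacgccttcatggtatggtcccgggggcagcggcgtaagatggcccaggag
Sox3: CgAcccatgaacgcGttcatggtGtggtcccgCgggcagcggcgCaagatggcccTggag
Sox14: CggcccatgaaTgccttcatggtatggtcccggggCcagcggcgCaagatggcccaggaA
Sox21: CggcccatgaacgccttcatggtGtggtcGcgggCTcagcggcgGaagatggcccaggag
Sox4: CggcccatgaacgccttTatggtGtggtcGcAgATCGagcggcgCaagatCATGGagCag
Sox11: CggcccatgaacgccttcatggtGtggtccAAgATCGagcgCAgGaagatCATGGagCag
Sox12: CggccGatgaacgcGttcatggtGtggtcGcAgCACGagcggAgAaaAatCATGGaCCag
In these 60 bases the other SoxB genes differed from Sox2 at 5 to 7 positions and the SoxC genes at 16 to 20. Over 210 bases from the same start, identity was 84.3% to 90.5% in the 10 pairs within SoxB and 84.8% to 91.0% in the 3 pairs within SoxC. It was 67.1% to 73.3% in the 15 pairs between SoxB and SoxC. Sox4 and Sox11 were the closest pair, with 91.0% identity and an identical run of 48 bases. Over whole transcripts, few stretches as long as a read were shared. The share of 36-base stretches of a transcript that also occur in another of the 8 was at most 0.493%, for Sox3, and was 0 for Sox14 and Sox12. Exact sharing of reads between members could therefore touch at most that share of positions.

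Sox4 was the most abundant of the 8 transcripts in the differentiated library, and Sox2 in the undifferentiated library. Of the 7 genes that reached 1 RPKM in either library, differentiated cells had more than 2-fold higher Sox4 and Sox11 and more than 2-fold lower Sox2 and Sox21. Sox1, Sox3 and Sox12 lay between, and Sox14 stayed below 1 RPKM in both. Ratios are given as log2 with 1 RPKM added to both library means, so differences of weak genes appear smaller than they are. Among all 18019 genes at that floor, 19.1% were 2-fold higher and 8.46% were 2-fold lower by the same measure, 27.6% in all, beside 4 of the 7 Sox genes. Lanes of the 2 libraries did not overlap for 84.4% of those genes and for 6 of the 7 Sox genes, so that separation sets few genes apart. The median log2 ratio was 0.33 over the 7 genes and 0.12 over all genes at the floor. The group had genes at both ends and no common direction. Bulk RNA cannot separate fewer cells that express a gene from less RNA per cell.

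**Figure D1:**
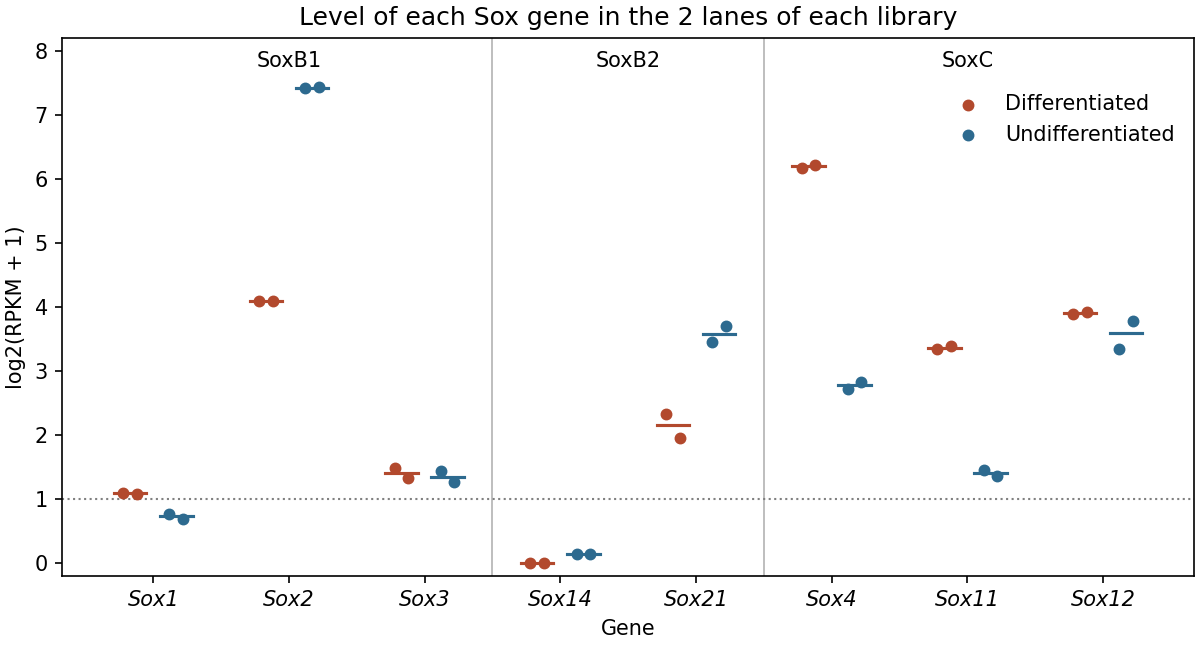
Level of each of the 8 genes as log2(RPKM + 1), with each lane as a point and the library mean as a bar, differentiated left of undifferentiated. The dotted line marks 1 RPKM. Sox2 was at 16.0 RPKM in the differentiated and 170.6 RPKM in the undifferentiated library, and Sox4 at 72.2 RPKM in the differentiated and 5.86 RPKM in the undifferentiated library.

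**Figure D2:**
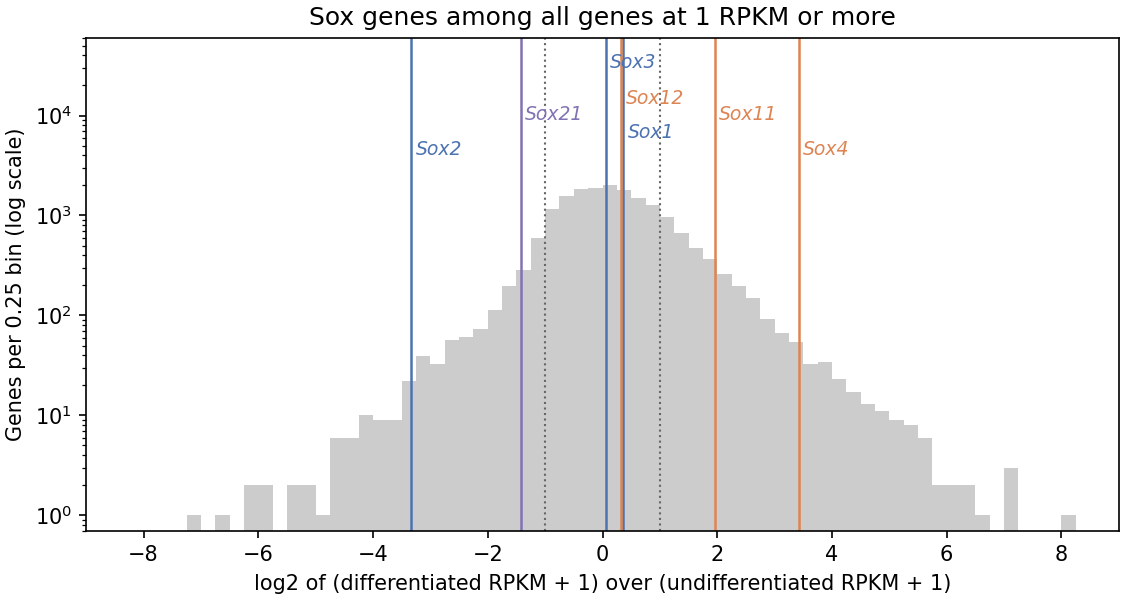
Distribution of log2 ratios of the 18019 genes at 1 RPKM or more in either library (grey, log-scaled gene number per bin), with the 7 Sox genes at that floor as lines coloured by group. Dotted lines mark 2-fold. Sox2 had a log2 ratio of -3.34 and Sox4 one of 3.42, while Sox3, Sox12 and Sox1 sat in the bulk of genes.

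Sox2, the SoxB1 factor of the ES cell network (mm9 chromosome 3, 34548927 to 34551383, plus strand), had 16.0 and 16.0 RPKM in the differentiated lanes, against 169 and 172 RPKM in the undifferentiated lanes. The lanes of a library almost coincided, and the libraries lay far apart. The mean was 10.7-fold lower after differentiation, with a log2 ratio of -3.34 ± 0.01 (SE from lanes). Of the 18019 genes, 61 had a lower ratio. Sox2 nonetheless remained at a level above that of 80.1% of all genes in the differentiated library, against 97.1% in the undifferentiated library, so its transcript was reduced but present. Sox2 lies on the plus strand inside the long noncoding gene Sox2ot, on the same strand, whose row read 0.423 RPKM in the differentiated and 0.468 RPKM in the undifferentiated library, and inside 2 further rows below 0.12 RPKM in both libraries. Reads over the shared bases could have been assigned to either gene, but all 3 rows were far below Sox2.

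Sox1, the SoxB1 gene that marks the earliest neural plate (chromosome 8, 12395519 to 12399555, plus strand), was weak in both libraries. It had 1.12 and 1.12 RPKM in the differentiated lanes, against 0.702 and 0.610 RPKM in the undifferentiated lanes. The 2 libraries did not overlap, and the mean was 1.71-fold higher after differentiation (log2 ratio 0.36 ± 0.04), short of 2-fold. Sox1 has a single transcript model, so its reads can be estimated: about 295 in the differentiated and 196 in the undifferentiated library. The exact Poisson 95% interval of its level was 0.999 to 1.26 RPKM in the differentiated and 0.568 to 0.755 RPKM in the undifferentiated library, which covers counting error only. Sox1 reached the floor through the differentiated library alone. A longer row that contains Sox1, Gm5607 on the same strand, was at 0.201 RPKM in the differentiated and 0.359 RPKM in the undifferentiated library. Reads over the shared bases could have been assigned to either row, and the effect on the level of Sox1 was not tested.

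Sox3, the X-linked SoxB1 gene (chromosome X, 58144541 to 58146605, minus strand), differed by less than its lanes did. It had 1.79 and 1.51 RPKM in the differentiated lanes, against 1.69 and 1.41 RPKM in the undifferentiated lanes. The libraries overlapped, and the log2 ratio was 0.06 ± 0.11. The sign is therefore not resolved by the lanes. Its Poisson intervals, from about 222 reads in the differentiated and 237 in the undifferentiated library, were 1.44 to 1.89 RPKM in the differentiated and 1.36 to 1.76 RPKM in the undifferentiated library.

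Together the SoxB1 genes summed to 18.8 ± 0.21 RPKM in the differentiated and 173 ± 2.12 RPKM in the undifferentiated library, a log2 ratio of -3.20. Nearly all of that sum was Sox2, which made up 85.2% of it after differentiation and 98.7% before. Sox3 held 8.79% of the SoxB1 sum in the differentiated and 0.897% in the undifferentiated library, and Sox1 held 5.98% in the differentiated and 0.379% in the undifferentiated library. These larger shares came with a smaller Sox2 and at most 1.71-fold more of either gene.

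The SoxB2 gene Sox21 (chromosome 14, 118632454 to 118636252, minus strand) was lower after differentiation, as Sox2 was. It had 4.01 and 2.87 RPKM in the differentiated lanes, against 9.89 and 12 RPKM in the undifferentiated lanes. The libraries did not overlap, but the lanes were less alike than those of the other genes past 2-fold. The mean was 3.18-fold lower (log2 ratio -1.43 ± 0.23), with -1.12 in lane 1 and -1.75 in lane 2. With a pseudocount of 5 RPKM the ratio was -0.92 and no longer 2-fold. In undifferentiated cells Sox21 was the third most abundant of the 8 genes, level with Sox12. A pair of rows on the opposite strand overlaps it, and neither was above 0.385 RPKM in either library.

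Sox14, the other SoxB2 gene (chromosome 9, 99774525 to 99776663, minus strand), known from interneurons of the brain and spinal cord, was listed at 0 in both differentiated lanes, against 0.103 and 0.108 RPKM in the undifferentiated lanes. A count of 0 in the differentiated library allows a level of up to 0.0216 RPKM (3 reads), which covers counting error only. No fold is given against the listed 0, and the gene was close to silent in both conditions. The SoxB2 sum was 3.44 ± 0.80 RPKM in the differentiated and 11.1 ± 1.5 RPKM in the undifferentiated library, a log2 ratio of -1.68, and over 99% of it was Sox21 in each library.

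Among the SoxC genes, 2 of 3 were more than 2-fold higher, beside 19.1% of all genes at the floor. Sox4 (chromosome 13, 29040788 to 29045582, minus strand), an activator used in neurons, pancreas, heart and lymphocytes, had the largest ratio. Sox4 had 71.0 and 73.5 RPKM in the differentiated lanes, against 5.59 and 6.12 RPKM in the undifferentiated lanes. The lanes lay close together in each library and far from those of the other. The mean was 12.3-fold higher (log2 ratio 3.42 ± 0.06), and 173 of the 18019 genes had a higher ratio. In rank the gene moved to a level above that of 94.2% of all genes in the differentiated library, against 71.1% in the undifferentiated library. A row on the opposite strand that overlaps its 3′ part was at 0.111 RPKM in the differentiated and 0.0358 RPKM in the undifferentiated library.

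Sox11, the close relative of Sox4 that is best known from newborn neurons (chromosome 12, 28019129 to 28027583, minus strand), was higher too, at a lower level. It had 9.13 and 9.42 RPKM in the differentiated lanes, against 1.74 and 1.56 RPKM in the undifferentiated lanes. The libraries did not overlap. The mean was 5.62-fold higher (log2 ratio 1.96 ± 0.05), and 1036 of the 18019 genes had a higher ratio. With about 5099 reads in the differentiated and 1033 in the undifferentiated library, the Poisson intervals were 9.02 to 9.53 RPKM in the differentiated and 1.55 to 1.76 RPKM in the undifferentiated library. No other row of the gene table overlaps Sox11.

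Sox12, the third SoxC gene and in mice the one whose loss has the mildest effect (chromosome 2, 152219347 to 152223782, minus strand), was at almost the same level in both libraries. It had 13.9 and 14.2 RPKM in the differentiated lanes, against 9.19 and 12.8 RPKM in the undifferentiated lanes. The lanes did not overlap, as was true of 84.4% of all genes at the floor, and the log2 ratio of 0.33 ± 0.22 lay within 2-fold. The 2 undifferentiated lanes (SD 2.54 RPKM) lay further apart than the library means, 14.0 ± 0.23 RPKM in the differentiated and 11 ± 2.54 RPKM in the undifferentiated library. The 1 row that overlaps Sox12 is a Ncoa3 model on the opposite strand, drawn from 48669677 to 165898742 of chromosome 2, most of that chromosome. That row read 20.3 RPKM in the differentiated and 42.8 RPKM in the undifferentiated library, above Sox12 in both. The libraries carry no strand information, and whether reads over Sox12 were assigned to the Ncoa3 row was not tested.

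The SoxC sum was 95.5 ± 2.20 RPKM in the differentiated and 18.5 ± 2.79 RPKM in the undifferentiated library, a log2 ratio of 2.37. Within it the leading gene differed: Sox4 made up 75.6% of the sum after differentiation and 31.7% before, and Sox12 14.7% after and 59.4% before. Sox11 held nearly the same share, 9.71% in the differentiated and 8.92% in the undifferentiated library. So SoxC messages were present before differentiation mainly as Sox12, and after it mainly as Sox4.

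**Figure D3:**
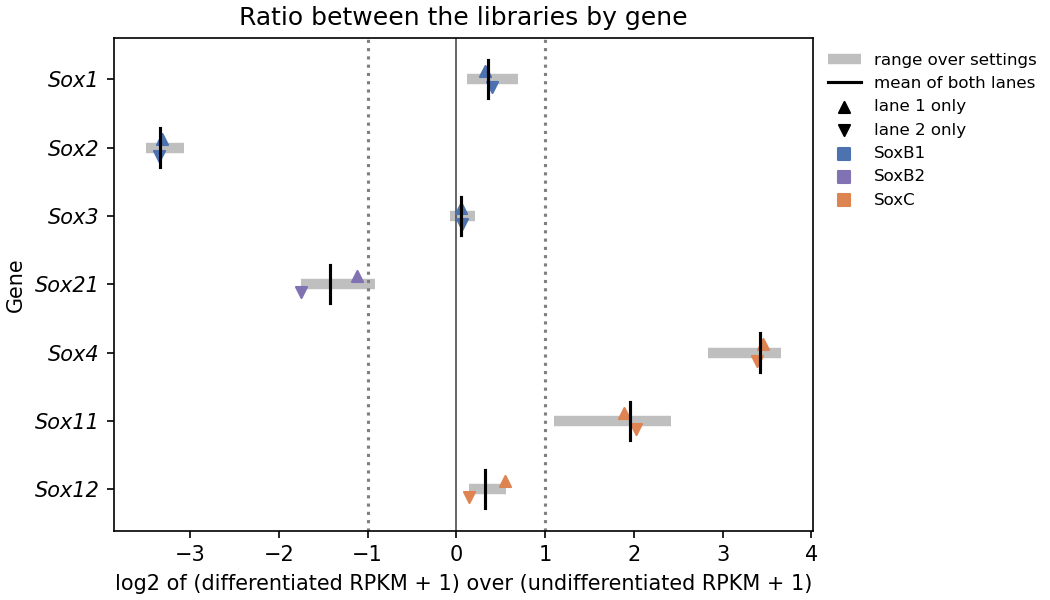
Log2 ratio of each of the 7 genes at 1 RPKM or more: black bars use the mean of both lanes, triangles single lanes, and grey bars the range over the settings tried. Dotted lines mark 2-fold. Sox4 and Sox11 stayed above 2-fold throughout and Sox2 below it, and Sox21 crossed the 2-fold line in 1 setting, at -0.92.

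The balance of the groups was turned over. SoxC genes made up 81.1% of the summed RPKM of the 8 genes in the differentiated and 9.14% in the undifferentiated library. SoxB1 genes made up 15.9% in the differentiated and 85.4% in the undifferentiated library, and SoxB2 genes 2.92% in the differentiated and 5.46% in the undifferentiated library. The sum itself was lower after differentiation, at 118 ± 1.19 RPKM against 202 ± 6.41 RPKM before. Sox4 alone held 61.4% of the 8-gene sum in the differentiated and 2.89% in the undifferentiated library, while Sox2 held 13.6% in the differentiated and 84.3% in the undifferentiated library. These shares use the values as deposited. A setting that divides each gene's reads by its longest span was added after the values were seen. With it the SoxC sum was 68.3 RPKM in the differentiated and 16.2 RPKM in the undifferentiated library, and its share 76.2% and 8.22%.

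**Figure D4:**
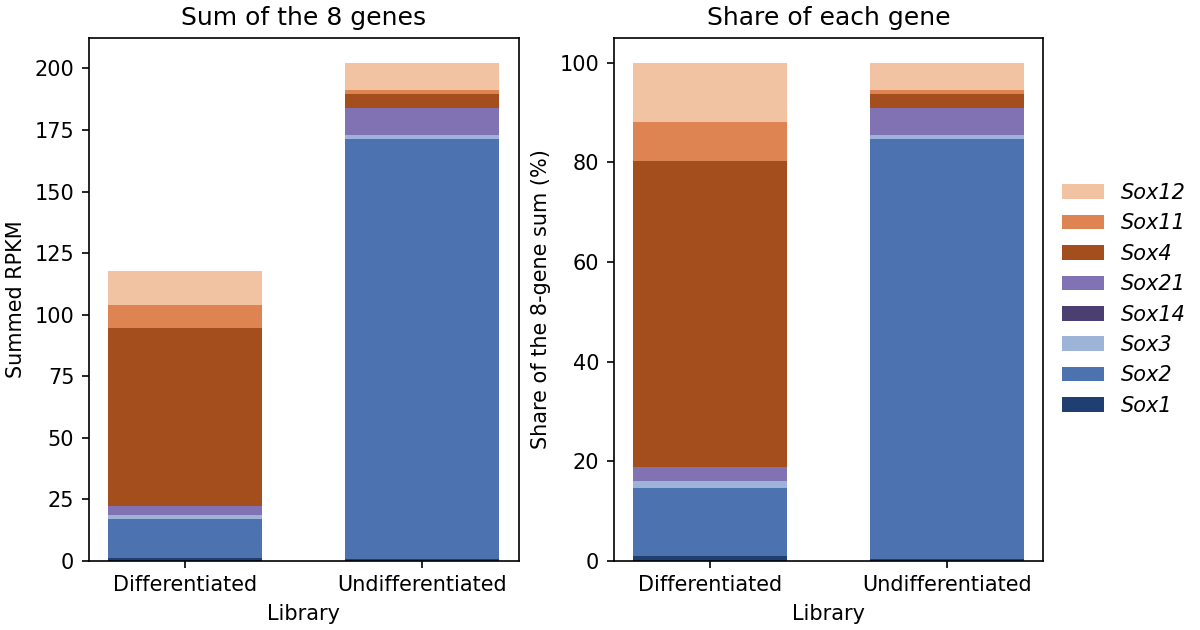
Summed RPKM of the 8 genes in each library (left) and the share of each gene in that sum (right), with SoxB1 in blues, SoxB2 in purples and SoxC in oranges. SoxC held 81.1% of the differentiated and 9.14% of the undifferentiated sum, with values as deposited.

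In order of level, the differentiated library ran from Sox4 (72.2 RPKM) through Sox2 (16.0), Sox12 (14.0), Sox11 (9.28), Sox21 (3.44), Sox3 (1.65) and Sox1 (1.12) to Sox14, listed at 0. No neighbours in that order overlapped in their lanes, although Sox2 was only 1.14-fold above Sox12. The undifferentiated library ran from Sox2 (171 RPKM) through Sox12 (11), Sox21 (10.9), Sox4 (5.86), Sox11 (1.65), Sox3 (1.55) and Sox1 (0.656) to Sox14 (0.106). There Sox12 and Sox21, and Sox11 and Sox3, could not be separated by their lanes.

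The transcript table splits several of these genes, each of 1 exon in GENCODE M21, into overlapping forms, and the gene values are sums over the forms. For Sox4 the full-length form (4795 bp) had 38.8 RPKM in the differentiated and 3.10 RPKM in the undifferentiated library. A form of 922 bp inside it had 15.9 RPKM in the differentiated and 1.32 RPKM in the undifferentiated library, and one of 863 bp had 17.5 RPKM in the differentiated and 1.43 RPKM in the undifferentiated library. The shares of the 3 forms were alike in both libraries, with the full-length form at 53.7% in the differentiated and 53.0% in the undifferentiated library. Each form is divided by its own length, so short nested forms raise the gene's value. With all reads divided by the longest span, a setting added after the values were seen, Sox4 stood at 45.0 RPKM in the differentiated and 3.61 RPKM in the undifferentiated library. Its lead over Sox2 in the differentiated library was then 2.82-fold, against 4.52-fold as deposited, its share of the 8-gene sum there was 50.2%, and its log2 ratio was 3.32.

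For Sox2 the full-length form (2457 bp) made up 91.9% of the gene in the differentiated and 90.02% in the undifferentiated library, so the reduction was seen in the main form. Its forms of 2405 and 2323 bp, which start slightly further in, held 5.17% and 2.95% in the differentiated library, against 5.43% and 4.54% in the undifferentiated library. For Sox21 the split was unstable. The full-length form (3799 bp) had 24.2% and 5.73% of the gene in the differentiated lanes, against 60.4% and 31.1% in the undifferentiated lanes. The difference in its share, differentiated minus undifferentiated, was -27.9 percentage points, within the 30 points used as a limit and about the size of the gap between the 2 undifferentiated lanes. The differentiated sum of Sox21 also lay below the 5 RPKM set for a comparison of shares. No promoter comparison was possible, since 7 genes have 1 promoter row each and both promoter rows of Sox14 were listed at 0 in the differentiated library.

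**Figure D5:**
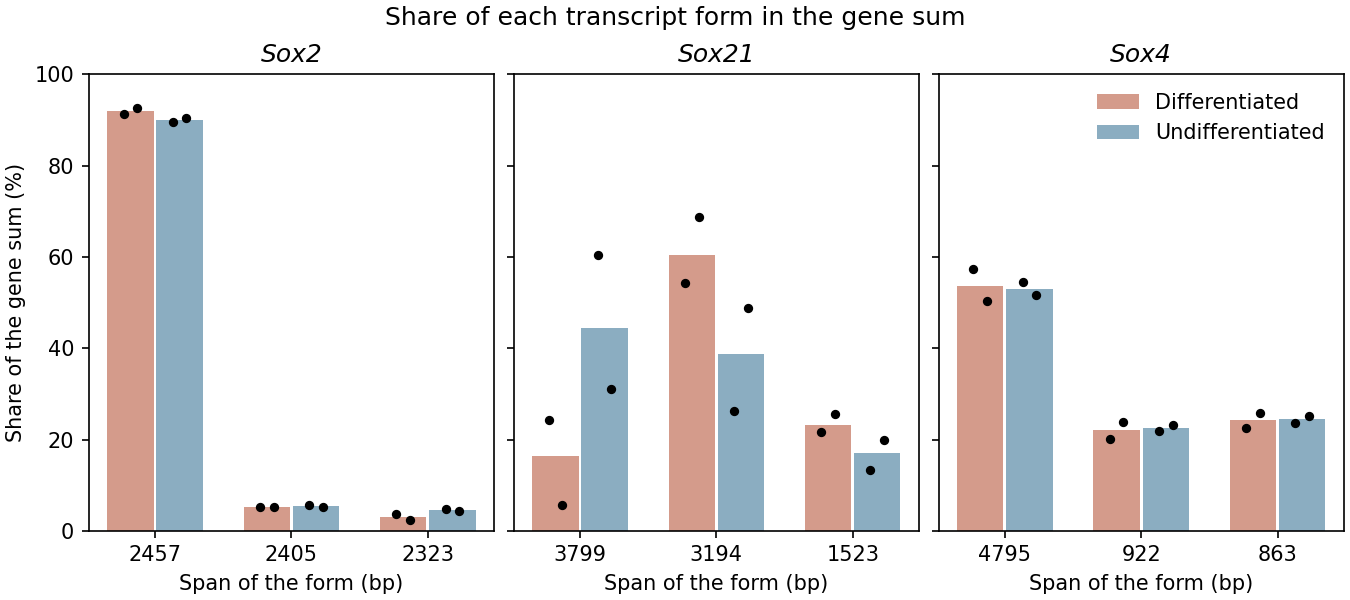
Share of each transcript form in the summed RPKM of Sox2, Sox21 and Sox4, differentiated left of undifferentiated, with bars for the share in the library mean and points for single lanes. Forms are named by their span in bp. Shares of Sox2 and Sox4 forms were alike in the 2 libraries, and those of Sox21 differed between the lanes of each library.

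Promoter windows are shown for the 3 genes with the largest ratios among the 8, because Sox4 and Sox11 were higher together while Sox2 was lower. They are 300 bases each, from 250 before to 50 after the RefSeq start, on build GRCm38.p6, read 5′ to 3′ on the gene's strand. RefSeq windows were matched for 7 of the 8 genes, all but Sox3. Both strands were searched for 4 motifs, and capitals mark their matches. CCAAT is the box bound by the factor NF-Y in many promoters. GGGCGG is the GC box of the Sp family of factors. AGGTCA is the core of sites bound by nuclear receptors, among them those for retinoic acid. The TATA box, searched as TATAAA, was found in none of the 7 windows. No matches overlap in these 3 windows.
Sox2, chr3:34649745-34650044, plus strand: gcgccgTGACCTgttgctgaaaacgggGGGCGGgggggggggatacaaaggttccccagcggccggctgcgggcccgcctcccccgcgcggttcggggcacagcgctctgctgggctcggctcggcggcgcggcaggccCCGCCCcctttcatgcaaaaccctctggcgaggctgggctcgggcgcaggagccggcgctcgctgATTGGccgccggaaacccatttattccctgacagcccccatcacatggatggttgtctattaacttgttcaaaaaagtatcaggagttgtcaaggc
Sox4, chr13:28953650-28953949, minus strand: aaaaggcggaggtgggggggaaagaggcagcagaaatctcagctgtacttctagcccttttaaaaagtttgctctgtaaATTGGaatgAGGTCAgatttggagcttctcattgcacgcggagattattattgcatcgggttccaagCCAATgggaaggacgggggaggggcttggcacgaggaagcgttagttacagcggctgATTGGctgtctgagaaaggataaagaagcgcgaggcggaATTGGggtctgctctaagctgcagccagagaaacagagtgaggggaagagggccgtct
Sox11, chr12:27342669-27342968, minus strand: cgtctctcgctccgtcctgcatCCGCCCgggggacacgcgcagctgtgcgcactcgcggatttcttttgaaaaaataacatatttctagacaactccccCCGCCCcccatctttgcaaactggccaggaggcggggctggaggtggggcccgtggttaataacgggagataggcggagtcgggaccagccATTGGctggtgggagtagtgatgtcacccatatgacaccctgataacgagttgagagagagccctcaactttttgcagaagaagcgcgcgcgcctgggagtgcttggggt
The Sox4 window held 4 CCAAT matches, that of Sox2 held 1 and that of Sox11 held 1. GC boxes were found 2 times in Sox2, 2 times in Sox11 and not in Sox4. The receptor core was found once in Sox2 and once in Sox4. Of the 7 matched genes, 6 held a CCAAT match, 5 a GC box and 2 the receptor core. Among all 32851 promoter windows of that length, 37.4% held CCAAT, 35.7% a GC box, 16.3% the receptor core and 13.6% the TATA box. The Sox4 window was 52.0% G or C, close to the median of 52.7% over all windows, while those of Sox2 and Sox11 were 66.3% and 58.7%. The letters are a description and show no binding.

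Genes with levels most like a member's were found by the distance in log2(RPKM + 1) over the 4 lanes, which stand for 2 libraries. Nearest to Sox2 were Fbxo15 (17 RPKM in the differentiated and 159 RPKM in the undifferentiated library) and L1td1 (20.9 RPKM in the differentiated and 153 RPKM in the undifferentiated library), at distances of 0.19 and 0.56. Nearest to Sox4 were Atp6v0a1 (69.1 RPKM in the differentiated and 6.08 RPKM in the undifferentiated library) and Dbn1 (73.5 RPKM in the differentiated and 6.32 RPKM in the undifferentiated library), at 0.17 and 0.32. Nearest to Sox11 were Cpne2 and Zfhx3, at 0.09 and 0.11, and nearest to Sox21 were Fgfbp1 and Ckmt1, at 0.28 and 0.31. Sox12 was matched by Nfat5 and Sirt6, Sox3 by Ttc30b and Il17rc, and Sox1 by Ascl2 and C1qtnf4, at distances of 0.06 to 0.21. With 2 libraries many genes share such a pattern.

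The partners and reported targets of Sox2 in ES cells were also lower. This list was chosen with earlier results of these data known, and any dependence of its genes on Sox2 was not tested. Each of the 10 listed genes was past 2-fold on the low side in differentiated cells, as were 8.46% of all genes at the floor, and the median log2 ratio was -3.95. Esrrb, an orphan receptor of naive ES cells, had the lowest ratio at -5.38, and Nanog, a homeobox factor, followed at -5.15. Fbxo15 and Utf1, for which sites bound by Sox2 with Oct4 have been described, had -3.15 and -3.96. Utf1 is named after its value was seen. Sox15, a related Sox gene of ES cells, was lower as well, at 0.564 ± 0.101 RPKM in the differentiated and 7.61 ± 1.02 RPKM in the undifferentiated library, and is likewise a later choice.

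Neural progenitor genes, which SoxB1 factors maintain, were partly higher. The floor was reached by 11 of 14 genes, with 5 past 2-fold upward, 1 downward and 5 within it (median log2 ratio 0.81). Over all genes at the floor, 19.1% were past 2-fold upward and 8.46% downward, and the 1 gene downward is near that share. The leading members were Cdh2, N-cadherin (3.90), and Nes, the intermediate filament nestin (2.98), both of which tissues other than the nervous system also express. The next genes are named after their values were seen. Vim (2.02), Zic1 (1.87) and Msi1 (1.29) were the others past 2-fold upward, and Gbx2 (-1.81) was the 1 downward. Pax6 (0.0001) and Notch1 (0.05) were within 2-fold, and Fabp7, Pou3f2 and Pou3f3 stayed below 1 RPKM in both libraries. Proneural factors, which act upstream of Sox4 and Sox11 in the chick spinal cord, stayed low. Of 7 genes 6 were under 1 RPKM in both libraries, and Neurod1 had 0.856 and 0.392 RPKM in the differentiated lanes, against 2.22 and 2.47 RPKM in the undifferentiated lanes. No proneural gene of the list reached 1 RPKM in the differentiated library. Any link between these factors and the levels of Sox4 and Sox11 was not tested.

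Neuron genes and reported SoxC targets had no common direction. Of 12 genes 9 reached the floor. Of these 3 were higher, 3 lower and 3 between, and the median log2 ratio was 0.44, beside 19.1% higher and 8.46% lower over all genes. Dbn1, the actin-binding protein drebrin, was higher (3.35), and Stmn2, a stathmin of growing axons, was lower (-4.05). Tubb3, neuronal beta-tubulin and a reported target of Sox4 and Sox11, had 14.3 and 13.6 RPKM in the differentiated lanes, against 37.4 and 37.4 RPKM in the undifferentiated lanes. Tead2, another reported target, had 164 and 68.9 RPKM in the differentiated lanes, against 36.1 and 39.8 RPKM in the undifferentiated lanes. Both are named after their values were seen. Tubb3 was lower and Tead2 higher by the library means, but the differentiated lanes of Tead2 differed by more than 2-fold, and in lane 2 alone its difference lay within 2-fold.

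Markers of other cell types differed in the same comparison. All 10 extraembryonic endoderm genes were past 2-fold upward, as were 19.1% of all genes at the floor, with a median log2 ratio of 5.38 and summed levels of 4081 RPKM in the differentiated and 54.3 RPKM in the undifferentiated library. They were led by Col4a1, a type IV collagen chain (7.03), and Cubn, the receptor cubilin (5.97). Of 10 fibroblast genes 9 reached the floor, with 5 higher, none lower and 4 between, against 19.1% higher and 8.46% lower over all genes. Their summed level was 245 RPKM in the differentiated and 33.9 RPKM in the undifferentiated library, led by the collagen genes Col1a1 (3.33) and Col3a1 (3.02). The 4 between, named after their values were seen, were Thy1 (-0.50), Postn (-0.49), Pdgfrb (0.50) and Prrx1 (0.72). Per the labels, remaining fibroblasts were under 0.25% of cells. Which cells carried these transcripts, and any part of such cells in the levels of Sox4 and Sox11, was not tested. Of 11 further Sox genes 7 reached the floor, with 4 higher, 1 lower and 2 between, against 19.1% higher and 8.46% lower over all genes. Among them the endoderm factors Sox17 (4.99) and Sox7 (3.54) had the largest ratios.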

How the data were processed

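Poly(A) RNA of 1 differentiated and 1 undifferentiated culture was sequenced as 36 bp reads from 1 end, with 2 lanes a library, per the labels' protocols. The authors made and deposited gene, promoter and transcript tables with an RPKM value per lane and the lane mean; the scaling to length and depth was done before deposit. The unit is not named in them and was taken as RPKM because, in 7983 single-exon genes, 82.1% to 82.4% of low values times length fell within 5% of a whole read at the best depth of a lane. That depth was searched for under this unit, so the depths, read numbers and Poisson intervals given here rest on it. The submitters' processing notes name build mm9; deposited coordinates are given 1-based. For the aligner, counting program and annotation, each is not given in the sources used here. Libraries from this kit carry no strand information.

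Ratios were computed in Python 3.11.15 with a pseudocount of 1 RPKM, a floor of 1 RPKM in either library and a limit of 2-fold, and tested on simulated data. With 1 library per group there is no test. Genes named are the 8 members, the 2 genes with the largest ratio of each comparison list and the 2 nearest to each member at the floor; others are said to be named after their values were seen. Where several rows share a symbol (488 rows), that with the highest mean served for named genes. The members and lists were chosen with earlier results of these data known.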

Additional observations from a re-analysis of the deposited data

How the results depend on the processing

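Across 12 alternatives (pseudocount, floor, scaling, single lanes, summed rows of 1 symbol, and 1 length per gene, which was added after seeing the data), Sox4 and Sox11 kept log2 ratios of 2.83 to 3.66 and 1.10 to 2.42, and Sox2 of -3.50 to -3.06. The number of members at least 2-fold lower was 2 in all but 1 of them, and 1 with a pseudocount of 5, where Sox21 was at -0.92. Sox1 and Sox12 stayed within 2-fold at 0.11 to 0.69 and 0.14 to 0.55, and Sox3 ranged from -0.07 to 0.21; a floor of 5 RPKM removed Sox1 and Sox3. The log2 ratio of the SoxB1 sum was -3.33 after centring on the median gene, -3.38 after trimmed-mean scaling, -3.33 after upper-quartile scaling, -2.96 with equal RPKM sums, -3.18 in lane 1 and -3.23 in lane 2. That of the SoxC sum was 2.20 after trimmed-mean scaling (2.195), 2.61 with equal sums and 2.07 with 1 length per gene. That of the SoxB2 sum was -1.32 in lane 1 and -2.08 in lane 2, so its size rests on 1 noisy gene. These scalings shifted the median log2 ratio of all genes by -0.12, -0.15, -0.11 and 0.21. Of all genes past 2-fold, 69.3% were higher as deposited, 59.4%, 57.8% and 61.1% after the first 3 scalings and 80.4% with equal sums. No paired analysis was possible because each group has 1 library. Levels near 1 RPKM rest on 196 to 295 reads.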
